A study of Bos taurus with 6 samples.

Results

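Integrins and tetraspanins were followed in bovine granulosa cells after 2 lengths of FSH superstimulation. The set holds every gene whose annotated symbol begins with ITGA, ITGB, TSPAN or TM4SF, together with CD9, CD63, CD81, CD82 and CD151. This gave 60 genes (75 probes) of the 15216 genes with a symbol on the array, of which 17 are integrin alpha subunits, 8 integrin beta subunits, 26 tetraspanins and 5 members of the L6 family (TM4SF symbols). The remaining 4 genes, ITGB1BP1, ITGB1BP2, ITGB3BP and ITGBL1, carry the ITGB prefix but do not encode integrin subunits. Of the 60 genes, 37 had a probe whose signal exceeded the array background in 3 or more of a group's 6 readings, and only these were tested, as were 9933 genes in all.

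Integrins are heterodimers of an alpha and a beta subunit that span the plasma membrane and hold cells to laminin, fibronectin, collagen or counter-receptors on other cells. Talin and kindlin bind their short tails, and adaptors such as vinculin tie this complex to actin. Tetraspanins are small proteins with 4 membrane-spanning helices that gather integrins, proteases and immunoglobulin-like partners into membrane microdomains, and the L6 proteins share this layout without being true tetraspanins. Granulosa cells rest on a basal lamina rich in laminin and collagen, and this attachment is remodelled when the follicle wall breaks down at ovulation.

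The long FSH group consisted of multiparous beef cows given FSH for 7 days, and the conventional FSH group of multiparous beef cows given FSH for 4 days. In both groups follicles were ablated to start a new wave, FSH was given every 12 hours, PGF2α was given, and the ovaries were removed 24 h after LH. RNA of granulosa cells from the 3 largest follicles was pooled per cow and amplified, so a value is an average over follicles. RNA of 3 cows per group was hybridised in 3 cow pairs, each on 2 arrays with the dyes swapped, and n = 3 cow pairs throughout. Every array and dye had 41.8% to 51.4% of probes above background, and ratios correlated across probes with r = 0.43 between pairs 1 and 2, against 0.16 for pair 3 with either. Probes are not independent replicates.

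All ratios have the long FSH cow on top. The sample labels and the design text of the series assign the dyes the opposite way round. The design text and the legends of the study point the same way, so their direction was taken, as the likely one. The study's RT-PCR and follicular fluid hormones, which involve no array dye, have that direction as well. With the other, every higher value below would be lower and the reverse. The cells carried granulosa transcripts, with 9 of 10 markers tested. Past the threshold given below, 3 were higher (33.3%, against 3.39% of all tested genes) and 1 lower (11.1%, against 2.02%), with a median of -0.33. STAR, which brings cholesterol into the mitochondrion, differed by 2.94 ± 1.35 and CYP19A1, the aromatase, by -1.81 ± 1.35 on the log2 scale (SD, n = 3 pairs). HSD3B1 (2.93) and NR5A2 (1.30) were the other higher markers. CYP11A1 (-1.24), AMH (-0.68), INHA (-0.65), FSHR (-0.33) and GATM (1.05) did not pass. FOXL2 was not above background in enough readings to be tested. In pooled tissue RNA, fewer cells of a type and less RNA per cell cannot be told apart.

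TM4SF1 stood out as higher after long FSH, and TSPAN6, TSPAN5 and ITGB1BP1 as lower. These 4 genes passed the study's threshold, an unadjusted P of 0.05 or less in limma and at least a 2-fold difference. The study also describes a false discovery rate filter by the Benjamini-Hochberg method, which none of the 4 passed in the main fit here. The 1 higher member is 2.70% of the 37 tested, against 3.39% of all tested genes. The 3 lower members are 8.11%, against 2.02% of all tested genes. The other 33 did not pass. In the opposite dye direction the members would count as 3 higher and 1 lower. After Benjamini-Hochberg adjustment over all genes, 0% of the 9933 genes and 0 members passed in limma. An unadjusted p of 0.05 or less was found for 8 members and for 1158 of all genes. When the 6 arrays entered the fit singly with the cow pair as replicate block, 429 genes passed the adjusted threshold with at least a 2-fold difference, and TM4SF1 (adjusted p = 0.00244) and TSPAN6 (adjusted p = 0.0273) were the members among them. In that fit the dye swaps, which are repeats on the same RNA, counted largely as separate replicates.

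**Figure D1:**
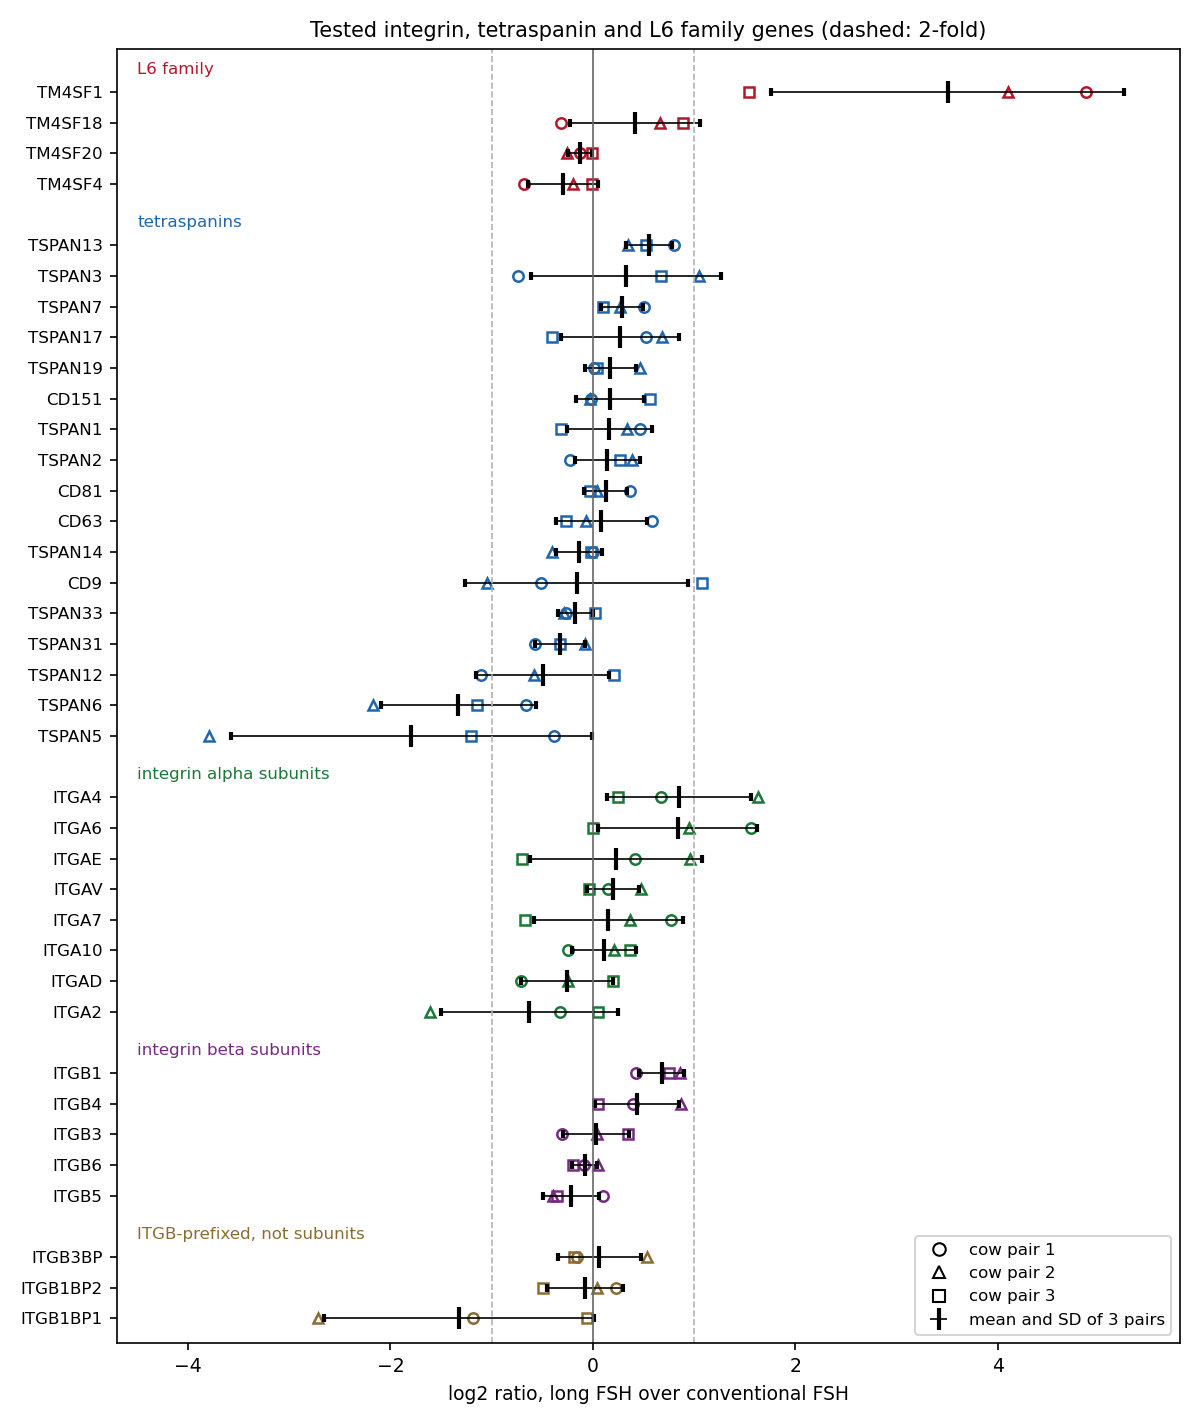
Log2 ratio of long over conventional FSH (horizontal axis) for the 37 tested genes, by family. Open symbols are the 3 cow pairs, the black tick and bar their mean and SD, and dashed lines mark a 2-fold difference. TM4SF1 lies far to the right at 3.51, TSPAN6, TSPAN5 and ITGB1BP1 lie to the left, and 28 genes have a mean within 0.5 of 0.

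Most members differed little. The median log2 ratio of the 37 tested genes was 0.11, and that of all tested genes 0.03. More members passed the filter through the long FSH group alone than through the conventional FSH group alone, which favours a median above 0. With no filter on dim probes, the median was 0.08 over 60 members and 0.02 over all genes. The median size of the 37 ratios regardless of sign was 0.23, against 0.27 over all tested genes. A mean within 0.5 of 0 was measured for 28 of 37 members and for 7624 of 9933 genes. All 3 cow pairs lay on the same side of 0 in 14 members (37.8%) and in 3573 genes (36.0%). The levels of the 3 long FSH cows and the 3 conventional FSH cows did not overlap in 6 of 37 members (TM4SF1, TSPAN6, ITGB1BP1, ITGB1, TSPAN7 and TM4SF20), against 14.9% of all tested genes. Of these, ITGB1 and TSPAN7 passed the filter through the long FSH group alone, which favours such a separation.

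The largest difference among the members was in the L6 family. TM4SF1, the L6 antigen, is a surface protein first described on tumour cells and abundant on endothelial cells, where it takes part in cell spreading and migration. Its normalized log2 intensity was 11.86, 13.61 and 12.11 in long FSH cows 1 to 3, against 6.98, 9.51 and 10.57 in conventional FSH cows 1 to 3. All 3 long FSH cows were above all 3 conventional FSH cows, and the conventional FSH cows were spread more widely. The log2 ratios were 4.88, 4.10 and 1.54 in pairs 1 to 3, with a mean of 3.51 ± 1.75 (SD, n = 3 pairs), or 11.4-fold higher. The probe exceeded background in 6 of 6 long FSH and 5 of 6 conventional FSH readings. Conventional FSH cow 1, at 6.98, lay near background, so the size of the pair 1 ratio and of the mean is uncertain. The 95% interval of the mean ran from 1.93 to 5.09, with an adjusted p of 0.157 in limma. Among the 9933 tested genes it ranked 12 from the top.

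Another pair of TM4SF1 probes also passed the threshold as higher. The second probe had levels of 11.41, 12.83 and 11.12 in long FSH cows, against 7.74, 9.26 and 10.46 in conventional FSH cows, and a ratio of 2.63 ± 1.71. The third had 8.95, 11.48 and 9.92 in long FSH cows, against 6.77, 7.65 and 8.54 in conventional FSH cows, and a ratio of 2.46 ± 1.24. Neither probe showed any overlap between the groups, and pair 3 had the smallest ratio on all 3 probes. On single arrays the brightest probe gave 5.29, 4.71 and 1.31 for pairs 1 to 3, and 4.47, 3.49 and 1.77 on the arrays with swapped dyes. Leaving out a pair changed the mean to between 2.82 and 4.49, and the threshold was passed each time. With limma's trend and robust options its p just missed the limit.

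In the RefSeq gene order of the ARS-UCD2.0 assembly, TM4SF4, TM4SF1 and TM4SF18 are direct neighbours. TM4SF18, an L6 protein close to TM4SF1 in sequence, had 7.11, 6.79 and 7.51 in long FSH cows, against 7.42, 6.13 and 6.62 in conventional FSH cows. The groups overlapped, with a ratio of 0.42 ± 0.64, and the probe exceeded background in 3 of 6 long FSH and 2 of 6 conventional FSH readings. TM4SF4, known from intestine and liver, had a ratio of -0.29 ± 0.35. Its probe exceeded background in 1 of 6 long FSH and 3 of 6 conventional FSH readings. TM4SF20 had a ratio of -0.13 ± 0.12, and TM4SF5 was not tested. The large ratio of TM4SF1 was thus measured beside neighbours whose ratios were under 0.5 in size. Both neighbours lay near background, so their ratios do not show whether the difference was confined to TM4SF1.

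**Figure D2:**
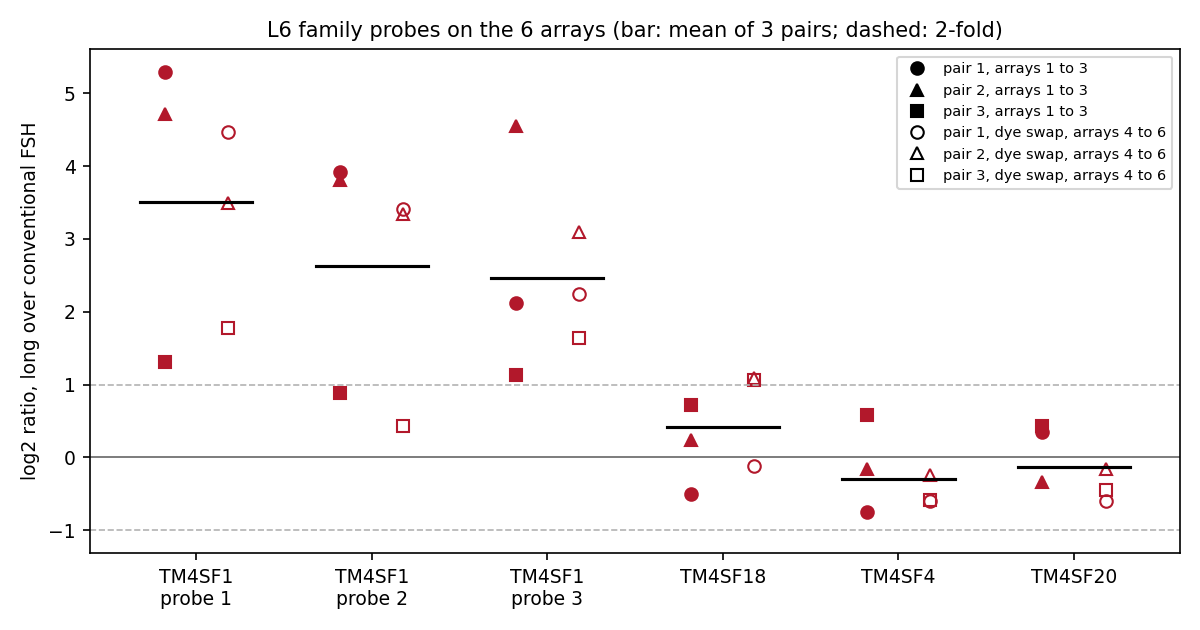
Log2 ratio of long over conventional FSH (vertical axis) on each of the 6 arrays for the tested probes of the L6 family. Filled symbols are arrays 1 to 3, open symbols the arrays with swapped dyes, shapes the cow pairs and bars the mean of the pairs. All TM4SF1 arrays lie above 0 on all 3 probes, with pair 3 lowest, while TM4SF18, TM4SF4 and TM4SF20 scatter around 0.

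Since TM4SF1 is also an endothelial gene, the endothelial markers are set beside it. Of 10 markers, 4 were tested and none passed, with a median log2 ratio of -0.26. KDR (-0.55) and CLDN5 (-0.43) passed the filter through the conventional FSH group alone, which favours a ratio below 0. TEK (0.35) and CDH5 (-0.10) passed it in both groups. The mean level of the tested markers was 7.07, 7.13 and 6.92 in long FSH cows, against 7.25, 7.38 and 7.03 in conventional FSH cows. The part of endothelial cells in the TM4SF1 ratio was not tested. PECAM1, VWF, CD34, EMCN, ESAM and TIE1 were not above background in enough readings in either group. Markers of smooth muscle had a median of 0.75 over 4 tested of 6, with CNN1 higher at 1.78 ± 1.85, and their part in the result was not tested. CNN1 lost its call without pair 1 and without pair 3. Theca markers (4 of 7 tested, CYP17A1 not above background in enough readings) gave none past the threshold, with a median of 0.32 and pair medians of 0.65, 0.52 and -0.47. PTCH1 had the highest ratio among them, 1.82 ± 2.37, and their part in the result was not tested. Oocyte markers (2 of 6 tested) gave none past the threshold.

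Among the tetraspanins, 17 of 26 genes were tested, and the family median was 0.13. TSPAN1, TSPAN2, TSPAN7 and TSPAN19 passed the filter through the long FSH group alone, which favours a positive median. Of the tested genes 2 were lower (11.8%, against 2.02% of all tested genes) and none was higher (against 3.39%). TSPAN6, a tetraspanin of surface and endosomal membranes, has been described as a brake on innate RNA sensing. Its level was 11.78, 10.90 and 11.18 in long FSH cows, against 12.45, 13.07 and 12.33 in conventional FSH cows. The groups did not overlap, and all 6 arrays gave a ratio below 0. The log2 ratio was -1.33 ± 0.77 (SD, n = 3 pairs; 95% interval -2.15 to -0.51), or 2.51-fold lower, with an adjusted p of 0.242 in limma. Without pair 2 the ratio was -0.91 and fell short of 2-fold.

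TSPAN5 belongs to the TspanC8 tetraspanins, which escort the protease ADAM10 to the cell surface. Its level was 7.98, 7.35 and 8.41 in long FSH cows, against 8.36, 11.14 and 9.61 in conventional FSH cows. The highest long FSH cow lay just above the lowest conventional FSH cow, and cow 2 of the conventional group stood far above the rest. The log2 ratios were -0.38, -3.80 and -1.21 in pairs 1 to 3, with a mean of -1.79 ± 1.78 (95% interval -3.40 to -0.18; limma adjusted p = 0.390), or 3.47-fold lower. The swapped arrays gave -0.63 and -0.13 in pair 1, -3.69 and -3.90 in pair 2, and -1.21 on both arrays of pair 3. Without pair 2 the ratio was -0.79, under 2-fold, and with the deposited log2 ratios it was -1.53 and missed the p limit.

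None of the other tested TspanC8 genes passed the threshold. TSPAN14 had a ratio of -0.14 ± 0.23, TSPAN17 of 0.27 ± 0.59 and TSPAN33 of -0.17 ± 0.17, and TSPAN10 and TSPAN15 were not tested. ADAM10 itself was not above background in enough readings. No test was made of the difference between TSPAN5 and these genes.

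TSPAN13 had the highest ratio of the tetraspanins, and its function is little known. Its levels were 7.91, 7.98 and 8.55 in long FSH cows, against 7.11, 7.64 and 8.03 in conventional FSH cows. The groups overlapped, although the long FSH cow was above its partner in every pair. The ratio was 0.55 ± 0.23 (limma adjusted p = 0.399), with an unadjusted p under 0.05 but less than a 2-fold difference. Its other tested probes gave 0.56 and -0.05 and thus disagreed with each other.

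The widely studied tetraspanins differed little on average. CD9, which the egg needs for sperm fusion, had 6.87, 7.55 and 8.00 in long FSH cows, against 7.38, 8.60 and 6.92 in conventional FSH cows. The pairs went in both directions, at -0.51, -1.04 and 1.08, with a mean of -0.16 ± 1.10. CD63, which marks late endosomes and exosomes, had a ratio of 0.09 ± 0.45. CD81 had 0.13 ± 0.21, and its other probe -0.13. CD151, which binds laminin-binding integrins, had 0.17 ± 0.34, with a 95% interval of -0.39 to 0.73. CD82, a tetraspanin that restrains cell migration, was not above background in any reading.

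Of the rest, TSPAN12, a co-receptor for Norrin signalling through frizzled-4, had -0.49 ± 0.66, and TSPAN31 had -0.32 ± 0.25 with all 3 pairs below 0. TSPAN7 had 0.29 ± 0.21. Its levels of 7.21, 7.13 and 7.14 in long FSH cows lay just above 6.70, 6.87 and 7.04 in conventional FSH cows, with 3 and 1 of 6 readings above background. TSPAN3 had 0.33 ± 0.94. TSPAN1, TSPAN2 and TSPAN19 lay between 0.14 and 0.17, and like TSPAN7 they passed the filter through the long FSH group alone. None of these reached an unadjusted p of 0.05.

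**Figure D3:**
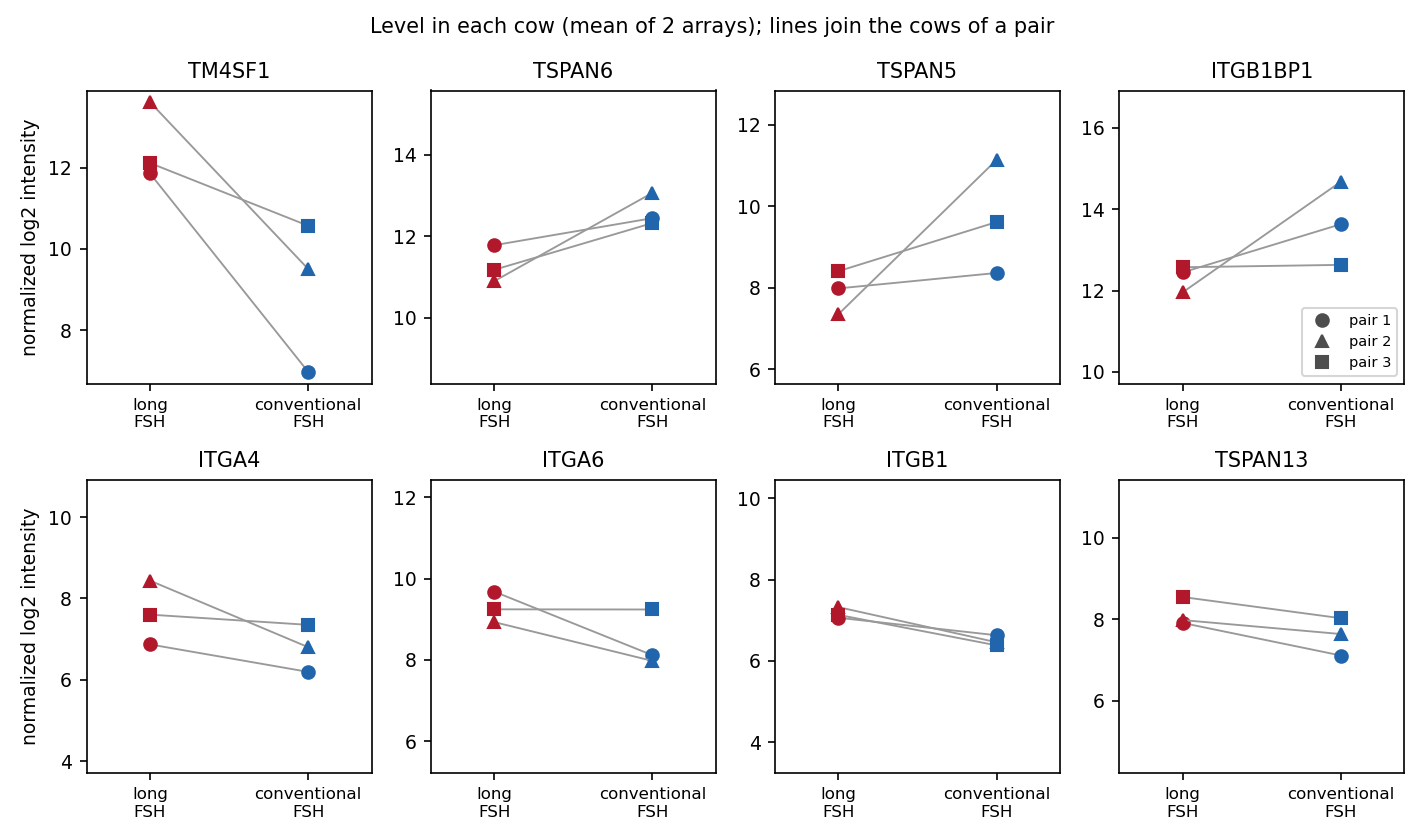
Normalized log2 intensity (vertical axis, the same span in each panel) in each cow for the 8 members with a p of 0.05 or less, long FSH on the left and conventional FSH on the right. Symbols are cows, each the mean of 2 arrays, and lines join the cows of a pair. The groups separate without overlap for TM4SF1, TSPAN6, ITGB1BP1 and ITGB1, and TSPAN5 rests largely on pair 2. ITGB1 was above background in no conventional FSH reading.

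No integrin subunit passed the threshold, against 3.39% higher and 2.02% lower over all tested genes. Of the 17 alpha subunits 8 were tested, with a median ratio of 0.18, and of the 8 beta subunits 5 were tested, with a median of 0.03. ITGB1, ITGA4 and ITGA6 reached an unadjusted p of 0.05 or less without a 2-fold difference, and each of them had a positive ratio.

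ITGB1 encodes the beta1 subunit, the common partner of most laminin, collagen and fibronectin receptors. Its level was 7.06, 7.32 and 7.13 in long FSH cows, against 6.63, 6.46 and 6.38 in conventional FSH cows. The groups did not overlap, and the ratios of 0.43, 0.86 and 0.75 had a mean of 0.68 ± 0.22 (limma adjusted p = 0.311). The probe was above background in 4 of 6 long FSH readings and in none of the conventional FSH readings. The difference is therefore only bounded, at least 1.11-fold higher. The bound sets the mean of the long FSH cows against the lowest signal that counted as above background in the conventional FSH readings, or the probe's own signal where that was higher.

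ITGA6 pairs with ITGB1 or ITGB4 to bind laminin and was well detected, with 6 of 6 readings in both groups. Its level was 9.68, 8.93 and 9.24 in long FSH cows, against 8.12, 7.98 and 9.24 in conventional FSH cows. The groups overlapped, because cow 3 of the conventional group was level with its partner. The ratios were 1.56, 0.95 and 0.00, with a mean of 0.84 ± 0.79 (95% interval 0.01 to 1.67; limma adjusted p = 0.425). Without pair 3 it was 1.26 and passed the threshold.

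ITGA4 pairs with ITGB1 to bind fibronectin and VCAM1 and is best known on leukocytes. Its level was 6.87, 8.44 and 7.60 in long FSH cows, against 6.20, 6.80 and 7.35 in conventional FSH cows. The groups overlapped, and the ratios were 0.68, 1.64 and 0.25, with a mean of 0.85 ± 0.71 (limma adjusted p = 0.392). Background was exceeded in 5 of 6 long FSH readings but only 2 of 6 conventional FSH readings, so the gene was tested through the long FSH group alone and the size of its ratio is uncertain. Without pair 3 it was 1.16 and passed the threshold. The leukocyte markers had median ratios of 0.40, 0.24 and 1.98 in pairs 1 to 3, and their part in the ITGA4 ratio was not tested.

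Among receptors for laminin, ITGB4, the hemidesmosomal partner of ITGA6, had a ratio of 0.44 ± 0.41 and ITGA7 one of 0.16 ± 0.74. ITGA2, a collagen receptor subunit, had 7.01, 6.66 and 6.95 in long FSH cows, against 7.33, 8.27 and 6.89 in conventional FSH cows. Cow 2 of the conventional group stood above the others, and the ratio was -0.63 ± 0.87. ITGA10, also a collagen receptor subunit, had 0.11 ± 0.32. ITGAV, the alpha subunit of the RGD-binding vitronectin receptors, had 0.20 ± 0.26, and its partners ITGB3, ITGB5 and ITGB6 had 0.03 ± 0.33, -0.22 ± 0.27 and -0.08 ± 0.12. ITGA5, the classical fibronectin receptor subunit, was above background in only 2 of 6 long FSH and 1 of 6 conventional FSH readings and was not tested. ITGB4 (4 and 1 of 6 readings) and ITGAV (6 and 2) were tested through the long FSH group alone. ITGA2 (2 and 5) was tested through the conventional FSH group alone. The filter favours a ratio toward that group, so the size of these 3 ratios is uncertain.

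The leukocyte integrin subunits ITGAM, ITGAL and ITGB2 were at or near background. ITGAM was above it in no reading, and ITGAL and ITGB2 in 1 of 6 long FSH readings and in no conventional FSH reading. ITGA2B, the platelet integrin subunit, was above background in no reading. ITGAD, which pairs with ITGB2, had a ratio of -0.25 ± 0.45, and ITGAE, a subunit of intraepithelial lymphocytes that binds E-cadherin, 0.23 ± 0.85. The ITGAE probe was above background in 6 of 6 readings of both groups. In the same libraries 10 of 14 leukocyte markers were tested, and 2 were higher (20%, against 3.39% of all tested genes). A mean above 0 was measured for 10 of 10, against 5244 of 9933 genes. TYROBP, LAPTM5, CD48, CD14, FCER1G and CORO1A passed the filter through the long FSH group alone, which favours a ratio above 0. The mean level of the tested markers was 7.73, 7.49 and 9.43 in long FSH cows, against 7.26, 7.17 and 7.50 in conventional FSH cows. Long FSH cow 3 stood apart in this mean. PTPRC, above background in all 6 readings of both groups, had 0.10 ± 0.62, with -0.57 in pair 3. FCER1G and CORO1A had 0.12 ± 0.20 and 0.14 ± 0.57. CD53, a tetraspanin of leukocytes whose symbol falls outside the naming rule, had 9.06, 8.55 and 13.05 in long FSH cows, against 7.76, 7.12 and 7.99 in conventional FSH cows. These did not overlap, and its ratio was 2.60 ± 2.14 (limma adjusted p = 0.307), or 1.36 without pair 3. TYROBP, an adaptor of myeloid and NK cell receptors, was the other higher marker. It was above background in 5 of 6 long FSH readings and in none of the conventional FSH readings, so its difference is only bounded, at least 2.45-fold higher. Platelet markers (3 of 7 tested) gave none past the threshold.

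Of the genes that only carry the ITGB prefix, ITGB1BP1 was lower after long FSH. It encodes ICAP-1, which binds the tail of beta1 integrin, competes there with talin and also binds KRIT1. Its level was 12.44, 11.95 and 12.57 in long FSH cows, against 13.63, 14.67 and 12.63 in conventional FSH cows. The groups did not overlap, but in pair 3 the cows were almost level. The log2 ratios were -1.19, -2.72 and -0.06, with a mean of -1.32 ± 1.34 (95% interval -2.57 to -0.07; limma adjusted p = 0.406), or 2.50-fold lower. The call was lost without pair 1 (-1.39), without pair 2 (-0.62) and with the deposited log2 ratios (-1.20).

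ITGB1BP2, or melusin, a muscle protein that binds beta1 integrin, had a ratio of -0.08 ± 0.37. ITGB3BP, a centromere protein despite its name, had 0.06 ± 0.41. ITGBL1, a secreted protein with integrin-like repeats, was not tested. The median of the 3 tested genes was -0.08.

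The 23 untested members were above background in at most 2 of 6 readings of either group, and 6 of them in no reading (CD82, ITGA2B, ITGA8, ITGAM, TSPAN10 and TSPAN18). A gene that passes the filter through 1 group alone is favoured to have a ratio toward that group, but it need not differ. ITGA4, ITGAV, ITGB1, ITGB4, TM4SF18, TSPAN1, TSPAN2, TSPAN7 and TSPAN19 passed through the long FSH group alone, all with positive ratios. ITGA2 and TM4SF4 passed through the conventional FSH group alone, both with negative ratios. Some of these ratios were small. ITGAV, above background in 6 of 6 long FSH and 2 of 6 conventional FSH readings, had 0.20 ± 0.26. The counts above therefore describe tested genes and not all 60. Among the tested members, 17 were above background in all 6 readings of both groups, and these include TSPAN6, TSPAN5, ITGB1BP1 and ITGA6.

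Of the integrin ligands, 22 of 34 were tested, 3 were higher (13.6%, against 3.39% of all tested genes), none was lower (against 2.02%), and the median ratio was 0.08. FN1, or fibronectin, bound by integrins that contain ITGA4, ITGA5 or ITGAV, had 13.21, 12.85 and 13.97 in long FSH cows, against 10.24, 11.18 and 12.49 in conventional FSH cows. The groups did not overlap, and the ratio was 2.04 ± 0.81 (limma adjusted p = 0.139). POSTN, or periostin, a matrix protein bound through ITGAV, had 13.27, 13.55 and 13.59 in long FSH cows, against 6.97, 7.91 and 12.39 in conventional FSH cows. These did not overlap either, and conventional FSH cow 3 was far above its group, with a ratio of 4.38 ± 2.77 (limma adjusted p = 0.215). TNC, or tenascin C, had a ratio of 2.62 ± 2.31, with 4.09, 3.82 and -0.04 in pairs 1 to 3, and without pair 3 it was 3.96. Its call was lost without pair 1, at 1.89. POSTN exceeded background in 5 of 6 and TNC in 4 of 6 conventional FSH readings, so the size of both ratios is uncertain. In pair 3 the ratios of POSTN, TNC and TM4SF1 were each the smallest of the 3 pairs. The laminin and collagen IV genes tested, ligands of ITGA6, ITGA7 and ITGA2, gave none past the threshold.

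Among activators and adaptors of integrins, 25 of 35 were tested, 3 were higher (12.0%, against 3.39% of all tested genes), none was lower (against 2.02%), and the median was 0.24. VCL, or vinculin, which links talin to actin, had 14.49, 14.29 and 14.48 in long FSH cows, against 11.96, 12.88 and 13.67 in conventional FSH cows. The groups did not overlap, and the ratio was 1.59 ± 0.87 (limma adjusted p = 0.216). RASSF5, which carries the Rap1 signal to leukocyte integrins, had 1.76 ± 1.58, and FERMT2, or kindlin-2, which binds beta tails beside talin, had 1.04 ± 0.95. RASSF5 lost its call without pair 1 (1.69) or pair 3 (1.01), and FERMT2 without pair 1 (1.06) or pair 2 (0.55). TLN1, or talin, had -0.01 ± 0.29. KRIT1, the partner of ITGB1BP1, had 0.72 ± 0.68 and did not pass.

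Among partners of tetraspanins and integrins, 12 of 18 were tested, none was higher (against 3.39% of all tested genes), 1 was lower (8.33%, against 2.02%), and the median was 0.02. ADAM17, the protease that releases ErbB ligands and TNF, had 9.11, 9.54 and 9.05 in long FSH cows, against 10.46, 11.89 and 9.33 in conventional FSH cows. The ratios of -1.35, -2.35 and -0.29 had a mean of -1.33 ± 1.03 (limma adjusted p = 0.313). The groups overlapped, and the call was lost without pair 1 (-1.32) or pair 2 (-0.82). PTGFRN, an immunoglobulin-like partner of CD9 and CD81, had -0.98 ± 0.49, just under 2-fold.

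**Figure D4:**
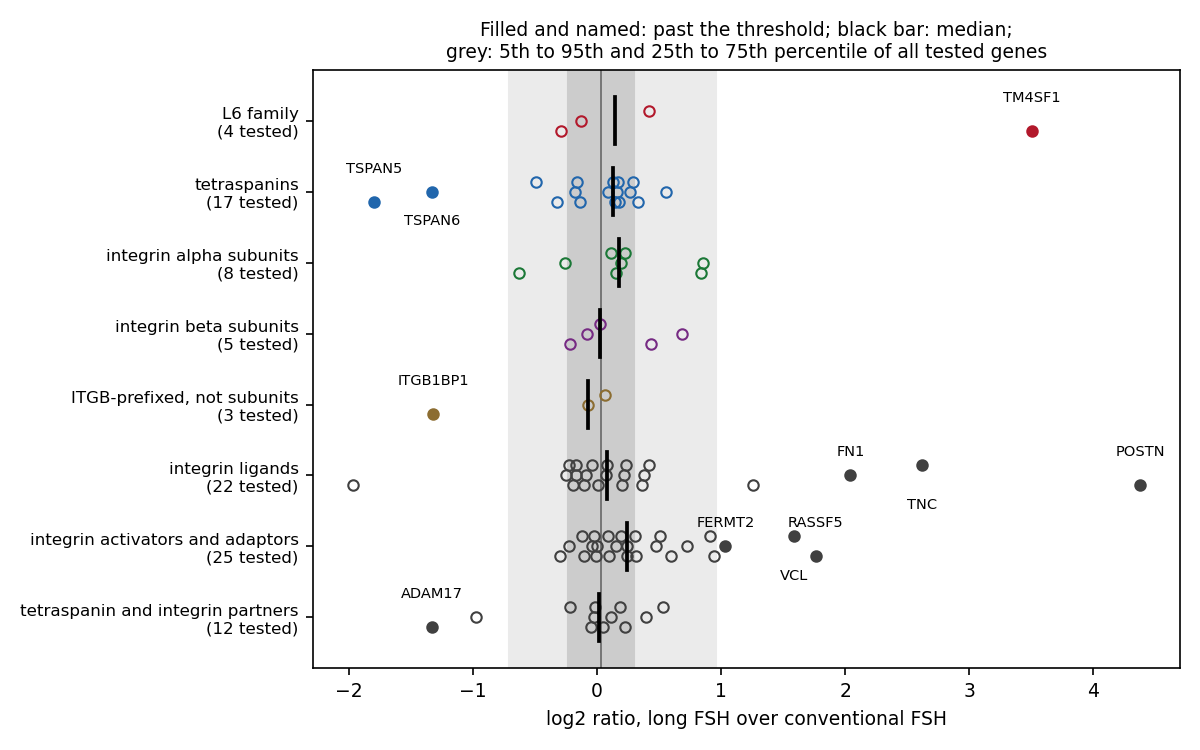
Log2 ratio of long over conventional FSH (horizontal axis) for the tested genes of each family and of the 3 lists of ligands, adaptors and partners. Each circle is a gene, filled and named where it passed the threshold, black bars are medians, and grey bands span the 5th to 95th and the 25th to 75th percentile of all tested genes. Medians lie between -0.08 and 0.24, while the ligands and adaptors past the threshold all lie to the right.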

How the data were processed

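The authors deposited, per the file headers, the median spot and local background intensity read by the scanner in both dyes. A deposited table of log2 ratios, normalized by the authors, served only as an alternative, because every column tracks the array with swapped dyes rather than the array it names. Following the study's methods, background was subtracted, 0.5 replaced values of 0 or less, and ratios were normalized by loess within arrays. Levels per cow were taken after Aquantile normalization between arrays. The study used quantile normalization between arrays, whereas Aquantile leaves ratios unchanged, so the ratios here had no normalization between arrays in the main fit. The 2 arrays of a pair carry identical extracts and were averaged. Limma 3.58.1 in R 4.3.3 was fitted to the 3 pair means over 23480 of 43794 probes, and p was adjusted by the Benjamini-Hochberg method over 9933 genes (1 probe each, the brightest tested). A probe was tested where it exceeded the mean plus 2 SD of the 153 negative controls in 3 or more of a group's 6 readings. Symbols came from the platform annotation, with 1524 probes renamed to RefSeq symbols, and all 60 members matched RefSeq. ITGB1BP3 is now NMRK2 and was not counted.

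Cows of a pair shared arrays, and once group means were removed they correlated at 0.153 to 0.260 across probes, while cows of different pairs reached -0.0131 at most. The cows are separate animals. The number of arrays limits the precision, and 3 pairs alone allow no two-sided exact p below 0.25. The script was tested on simulated data. Members and gene lists were chosen with earlier results of these data known. Named were members past the threshold, those of smallest p per family, a fixed set of well-known members, and list genes past the threshold, with others added after their values were seen. RT-PCR and hormone values were not analysed here. Alternatives covered background correction, normalization, the filter on dim probes, the fit, the fold limit, and leaving out pairs or arrays.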

Additional observations from a re-analysis of the deposited data

How the results depend on the processing

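Each tested member was recomputed under up to 22 settings. No sign change occurred in 20 members, among them the 8 with a p of 0.05 or less, and 17 changed sign in at least 1 setting. The count of higher members, 1, was 0 with limma's trend and robust options, where TM4SF1 just missed the p limit, and 4 with a 1.5-fold limit. Leaving out a pair or an array gave 1 to 3 higher members, with ITGA4 and ITGA6 added without pair 3 and 1 of them on leaving out each of 3 single arrays. The count of lower members, 3, was 1 with the deposited ratios, where TSPAN6 passed alone, and 0 to 3 on leaving out a pair or an array, with 0 without pair 2. ITGB1BP1 was also lost with no background subtraction, with median centring, with the trend and robust options and without 1 array of pair 3. The median over members, 0.109, was 0.0243 with the deposited ratios, 0.0649 with the mean of a gene's probes, and 0.0170 to 0.133 on leaving out a pair or an array. The medians of the beta subunits, tetraspanins, L6 family and ITGB-prefixed genes changed sign in at least 1 setting, and that of the alpha subunits did not. The share of higher genes among all calls, 62.6% (37.4% in the opposite dye direction), was 32.5% with the trend and robust options and 57.4% with the deposited ratios.

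With the 6 arrays entered one by one and the cow pair as replicate block, at a correlation of 0.145 between arrays of a pair, the counts of 1 higher and 3 lower members stayed. In that fit 429 genes and 2 members passed the adjusted threshold at 2-fold or more, TM4SF1 (adjusted p = 0.00244) and TSPAN6 (adjusted p = 0.0273). Without the block, 452 genes passed. Every ratio is taken within a slide. Pairs 1 and 2 share their slides and pair 3 lies on others. Without pair 3, which had the smallest TM4SF1 ratio, 120 genes passed the adjusted threshold at 2-fold or more. TM4SF1 was the member among them, with an adjusted p of 0.0167 in limma. Leaving out pairs for genes of the lists was chosen after seeing the data. The causes of these changes were not tested. Low signal limits the 20 tested members with fewer than 6 readings above background in a group, and the 23 that were not tested.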
